A study of Mus musculus with 12 samples.

Results

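Keratins are the intermediate filament proteins of epithelial cells, and 8 keratin genes were followed in the mouse proximal colon by RNA-Seq: the type II keratins Krt7, Krt8 and Krt80 and the type I keratins Krt18, Krt19, Krt20, Krt23 and Krt36. Most of them are keratins of simple epithelium, and Krt36 is known as a hair keratin. They were chosen by gene symbol and are 8 of the 55376 genes of the count table, and 8 of its 55 keratin genes. A total of 7 passed the filter on low counts, and Krt36 did not. Libraries were made from 6 EPR fl/fl and 6 EPR cKO mice aged 12 weeks, with 1 library per animal. EPR is an epithelial long noncoding RNA with a small open reading frame, and both groups descend from mice in which loxP sites flank the EPR promoter and exon 1. The controls are titled flfl in the labels and listed there with the genotype wt, and they are called EPR fl/fl here after their titles and the study's methods. The EPR cKO mice also carried a CDX2P-NLS Cre transgene, in which human CDX2 regulatory sequences drive Cre recombinase in epithelial cells of the colon, the cecum and the last stretch of the ileum. No group that carried Cre without the floxed allele was analysed here, so that the loss of EPR and the presence of Cre cannot be told apart. The sex of the animals is not given in the sources used here. Whole frozen tissue was used, so a library holds RNA of the mucosa together with that of the muscle wall and other tissue, and fewer cells of a type and less RNA per cell cannot be told apart.

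A keratin filament is built from pairs of unlike chains, in which 1 type I protein coils around 1 type II protein. KRT8 and KRT18 are the founding pair of simple epithelia, KRT19 is a second type I partner that is abundant in the intestine, and KRT20 marks the differentiated cells near the mucosal surface. Keratin filaments are anchored to desmosomes between neighbouring cells and to hemidesmosomes at the basement membrane, and mice that lack Krt8 are known to develop colitis and hyperplasia of the colon.

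Total counts were between 13093904 and 33211041 per library. EPR itself, listed under the symbol Smim31, had 297 to 1474 counts in EPR fl/fl libraries and 0 to 10 counts in EPR cKO libraries. Its log2 fold change was -8.09 (SE 0.47, edgeR adjusted p = 1.61e-06, n = 6 per group). The library EPR cKO 1 stood apart from the rest of its group. Its summed level of 9 smooth muscle marker genes was 8972 in counts-per-million units (CPM), against 1005 to 2603 CPM in the other EPR cKO libraries and 2969 to 5178 CPM in the EPR fl/fl libraries. The keratin fits are given with and without this library. All CPM values are scaled by the trimmed mean of M values (TMM), and a gene was called at a Benjamini-Hochberg adjusted p under 0.05.

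The 8 genes lie in the keratin clusters of the mouse genome (mm10), the type II genes and Krt18 on chromosome 15 and the other type I genes on chromosome 11. Krt8 (chr15:101996698-102004482, minus strand) and Krt18 (chr15:102028180-102032027, plus strand) are neighbours 23.7 kb apart, transcribed away from each other. Krt7 lies at chr15:101412402-101430313 on the plus strand and Krt80 at chr15:101347444-101370162 on the minus strand. On chromosome 11, Krt20 (chr11:99428403-99438150) and Krt23 (chr11:99477974-99493137) are neighbours 39.8 kb apart on the minus strand, with 0 annotated genes between them. Krt19 (chr11:100140810-100146120) and Krt36 (chr11:100102007-100105626) lie on the same strand.

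Of the 8 genes, 6 had a promoter sequence in the RefSeq table used here (GRCm38.p6), and Krt19 and Krt80 were not among them. The promoters of the neighbours Krt20 and Krt23 are shown because the fitted differences of these genes between EPR cKO and EPR fl/fl had opposite signs. Each run holds the 250 bases before the RefSeq start site, 5′ to 3′ on the minus strand, at chr11:99438154-99438403 for Krt20 and chr11:99493121-99493370 for Krt23. Capitals mark a match to 1 of 3 promoter motifs on either strand. The motif near many start sites was spelled TATAAA, the upstream motif bound by NF-Y was spelled CCAAT and the motif bound by Sp factors was spelled GGGCGG, and none of the 3 overlaps another in these windows.
Krt20: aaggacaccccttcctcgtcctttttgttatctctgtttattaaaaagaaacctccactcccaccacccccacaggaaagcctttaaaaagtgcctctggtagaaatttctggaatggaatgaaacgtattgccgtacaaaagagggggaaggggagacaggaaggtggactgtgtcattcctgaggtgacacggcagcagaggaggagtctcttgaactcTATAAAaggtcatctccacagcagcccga
Krt23: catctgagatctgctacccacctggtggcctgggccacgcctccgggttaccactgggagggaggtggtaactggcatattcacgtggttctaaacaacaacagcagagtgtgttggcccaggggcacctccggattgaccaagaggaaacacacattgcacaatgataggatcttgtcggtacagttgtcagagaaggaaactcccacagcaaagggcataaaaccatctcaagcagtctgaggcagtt
The Krt20 window held 1 match to the start site motif, which begins 29 bases before the start site, and the Krt23 window held none of the 3 motifs. Over the 32851 promoters of the table, 12.4% held the start site motif, 33.8% the NF-Y motif and 32.7% the Sp motif. The Krt7 window held 4 Sp motifs, the Krt36 window held 1 NF-Y motif, and the windows of Krt8 and Krt18 held none of the 3 motifs. These matches describe letters in a window and were not tested for activity.

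Krt8 was the most abundant of the 8 keratins in control colon, followed by Krt19, Krt20 and Krt18. Per kilobase of exon, as RPKM (CPM divided by the exon length in kilobases), the EPR fl/fl means were 1729 ± 340 for Krt8, 959 ± 206 for Krt19, 486 ± 129 for Krt20 and 184 ± 15.4 for Krt18 (SD, n = 6). The other members were far lower, at 25.5 ± 3.77 RPKM for Krt7, 3.06 ± 0.939 for Krt23, 0.331 ± 0.0950 for Krt80 and 0.0941 ± 0.0736 for Krt36. In EPR fl/fl the ranges of neighbours in this order did not overlap for any pair. The order by mean was the same in EPR cKO, where the ranges of Krt80 (0.109 to 0.759 RPKM) and Krt36 (0.0986 to 0.254 RPKM) overlapped.

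Per kilobase of exon, type II and type I keratin messages were close to equal within every library, a split that depends on this length scaling. It also depends on how reads of Krt8 that match another gene were counted, which is not given in the sources used here. The type II share of the summed RPKM of the 8 genes was 51.8% ± 1.00 (SD, n = 6) in control libraries and 52.1% ± 1.23 in EPR cKO, with a range over the 12 libraries from 50.1% to 54.2%. Krt8 alone made up 51.1% ± 0.938 of the sum in EPR fl/fl, against 51.4% ± 1.20 in EPR cKO libraries. On the type I side, Krt19 held 28.2% ± 1.13 and 28.7% ± 1.44, and Krt20 held 14.2% ± 1.88 and 14.95% ± 2.27. Krt18 held 5.62% ± 1.34 of the sum in EPR fl/fl against 4.24% ± 0.526 in EPR cKO. EPR cKO 1, with its high smooth muscle level, had a type II share of 51.1%, inside the range of the EPR fl/fl libraries.

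**Figure D1:**
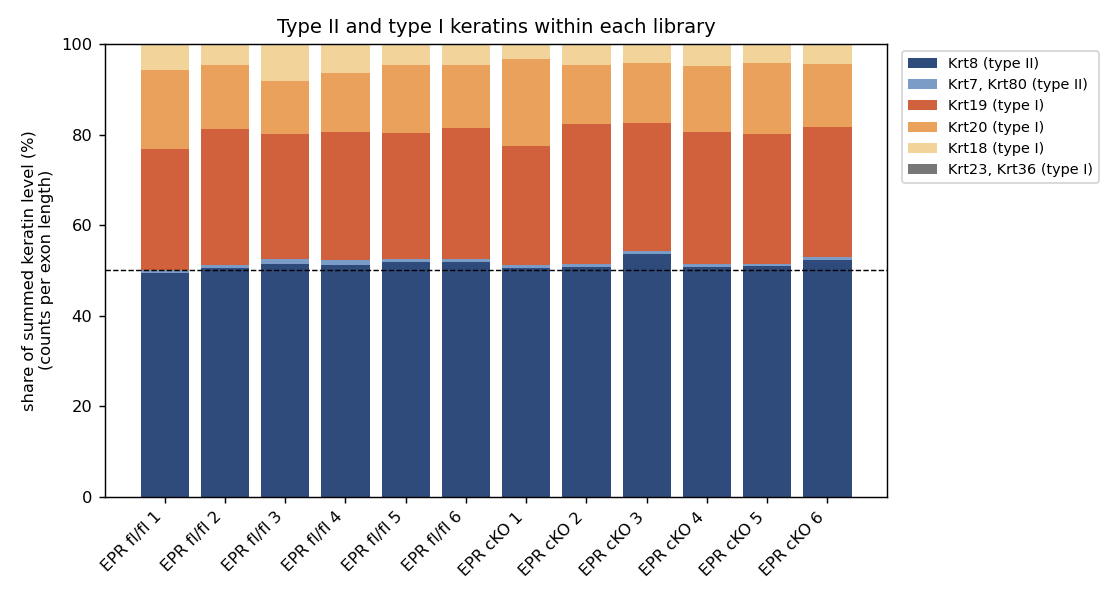
Share of each keratin in the summed keratin level (RPKM, percent) in each of the 12 libraries, with type II keratins in blue at the bottom and type I keratins in orange, yellow and grey above them. The dashed line marks equal shares, and the boundary between the types lies between 50.1% and 54.2% in all 12 libraries.

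None of the 7 tested keratins was called between EPR cKO and EPR fl/fl. The edgeR test called 0 of 7 where it called 2.46% of all 15952 genes, and 0 of 7 passed the stricter thresholds of the study (adjusted p under 0.001 with a minimum fold change), which 0.169% of genes passed. At an unadjusted p under 0.05 there were 4 of 7, against 18.3% of all genes. Of these, Krt8, Krt19 and Krt20 had higher values in EPR cKO (3 of 7, against 11.1% of all genes in this direction) and Krt23 had lower values. The limma-voom test called 0 of 7 where it called 503 of all 15952 genes, and DESeq2 called 0 of 7 where it called 913. Limma-voom with quality weights, which gives deviating libraries less weight, called 2 of 7 where it called 20.5% of all genes. The median log2 fold change of the 7 keratins was 0.18, beside 0.02 over all genes. The groups overlapped for each of the 7.

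**Figure D2:**
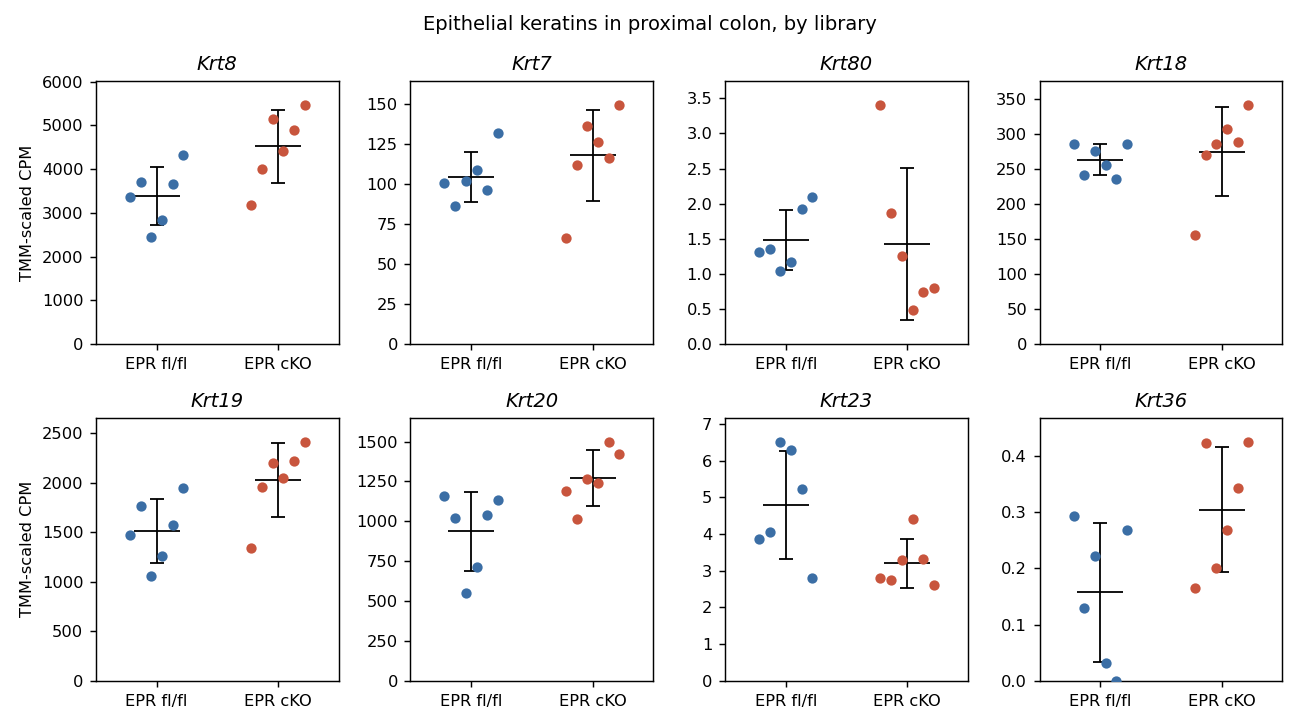
TMM-scaled CPM of the 8 keratins in each library, with blue points for EPR fl/fl, red points for EPR cKO, placed from replicate 1 to 6, and black marks for mean ± SD (n = 6). Most EPR cKO points of Krt8, Krt19 and Krt20 lie high, and EPR cKO 1 is the lowest EPR cKO point for Krt7, Krt8, Krt18 and Krt19 and the highest for Krt80.

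Among the type II keratins, Krt8 had EPR fl/fl levels with a lowest, median and highest value of 2445, 3507 and 4317 CPM. The EPR cKO values were 3189, 4656 and 5466 CPM. Of the EPR cKO libraries, 4 of 6 lay above every EPR fl/fl library and EPR cKO 1 was the lowest of its group. The means were 3386 ± 666 and 4519 ± 836 CPM (SD, n = 6), a 1.33-fold difference with a 95% interval from 1.05 to 1.70. The log2 fold change was 0.42 (SE 0.16) with an edgeR adjusted p of 0.199, so that the difference did not pass the threshold.

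Krt7, a type II keratin of ducts and glands, was measured at 86.2, 102 and 132 CPM (lowest, median, highest) in EPR fl/fl, against 66.3, 122 and 150 CPM in EPR cKO. The EPR cKO group held the lowest and the highest of the 12 values. Its log2 fold change was 0.18 (SE 0.16, edgeR adjusted p = 0.581), with a 95% interval from -0.18 to 0.53. Krt80, another type II keratin of epithelial cells, was close to the detection filter, with 11 to 62 counts per library. The highest Krt80 level was 3.40 CPM in EPR cKO 1, against 1.04 to 2.09 CPM over the EPR fl/fl libraries. Its log2 fold change of -0.06 had a 95% interval from -0.96 to 0.84 (SE 0.41, edgeR adjusted p = 0.948). Without EPR cKO 1 it was -0.53 (SE 0.33, edgeR adjusted p = 0.264).

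Among the type I keratins, Krt19 gave 1057, 1519 and 1944 CPM (lowest, median, highest) in EPR fl/fl. In EPR cKO it gave 1337, 2118 and 2414 CPM. Apart from EPR cKO 1, all EPR cKO libraries were above every EPR fl/fl library. The difference was 1.34-fold (95% interval 1.05 to 1.72), with a log2 fold change of 0.42 (SE 0.17, edgeR adjusted p = 0.200). Krt20, the keratin of surface colonocytes, gave 549, 1031 and 1160 CPM in EPR fl/fl, against 1013, 1253 and 1500 CPM in EPR cKO. Here EPR cKO 1 (1188 CPM) lay with its group, and 5 of 6 EPR cKO libraries were above the EPR fl/fl maximum. The difference was 1.36-fold (95% interval 1.05 to 1.76), with a log2 fold change of 0.44 (SE 0.17, edgeR adjusted p = 0.207).

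Krt18, the classical partner of Krt8, had a mean of 264 ± 22.1 CPM (SD, n = 6) in EPR fl/fl, against 275 ± 63.4 CPM in EPR cKO. It was measured at 237, 266 and 287 CPM (lowest, median, highest) in EPR fl/fl, against 156, 288 and 342 CPM in EPR cKO. Of the EPR cKO libraries, 4 of 6 lay above every EPR fl/fl library, and EPR cKO 1 had the lowest of the 12 values. Among these 4, EPR cKO 3 was at 286.54 CPM, beside an EPR fl/fl maximum of 286.52 CPM. The log2 fold change was 0.06 (SE 0.15, edgeR adjusted p = 0.845), with a 95% interval from -0.26 to 0.38. Without EPR cKO 1 the log2 fold change was 0.16 (edgeR adjusted p = 0.166). Krt18 was not tested against Krt8. In RPKM, the log2 ratio of Krt8 to Krt18 was 3.21 ± 0.33 (SD, n = 6) in EPR fl/fl, against 3.61 ± 0.19 in EPR cKO. In 4 of 6 EPR cKO libraries this ratio was above the EPR fl/fl maximum of 3.50, and EPR cKO 1 had the highest ratio at 3.91. The ratio is a description and was not tested.

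Krt23, a type I keratin of low level in the colon, was lower in EPR cKO with an unadjusted p of 0.0190 in edgeR. It gave 2.79, 4.64 and 6.51 CPM (lowest, median, highest) in EPR fl/fl, against 2.60, 3.05 and 4.41 CPM in EPR cKO. All 6 EPR cKO libraries lay below the EPR fl/fl mean of 4.79 CPM, and the groups overlapped. The level was 0.667 times that of EPR fl/fl (95% interval 0.481 to 0.925), with a log2 fold change of -0.59 (SE 0.22, edgeR adjusted p = 0.186). The log2 ratio of Krt20 to its neighbour Krt23, in RPKM, was 7.32 ± 0.86 (SD, n = 6) in EPR fl/fl, against 8.35 ± 0.32 in EPR cKO, with 3 of 6 EPR cKO libraries above the EPR fl/fl maximum.

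Krt36, a type I hair keratin, was barely detected. It had 0 to 7 counts in EPR fl/fl libraries (21 summed), against 3 to 11 counts in EPR cKO libraries (42 summed). The levels were 0 to 0.292 CPM and 0.165 to 0.425 CPM, and the groups overlapped. The EPR fl/fl library with 0 counts allows a level of up to 0.215 CPM, from a floor of 3 counts that covers counting error only. Krt36 did not pass the filter and no test is given.

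Leaving out EPR cKO 1 moved Krt8 and Krt19 past the threshold. Without this library, edgeR gave Krt8 a log2 fold change of 0.48 (adjusted p = 0.0376) and Krt19 one of 0.50 (adjusted p = 0.0284), and it called 2 of 7 keratins where it called 21.8% of all genes. Krt20 (0.44, adjusted p = 0.109), Krt23 (-0.57, adjusted p = 0.0902) and Krt7 (0.28, adjusted p = 0.0802) were not called, nor were Krt18 (0.16, adjusted p = 0.166) and Krt80 (-0.53, adjusted p = 0.264). Limma-voom with quality weights called the same pair, Krt8 (adjusted p = 0.0207) and Krt19 (adjusted p = 0.0188), and gave Krt20 an adjusted p of 0.0566. The share of keratins called in these fits is to be read against a background of about the same size.

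**Figure D3:**
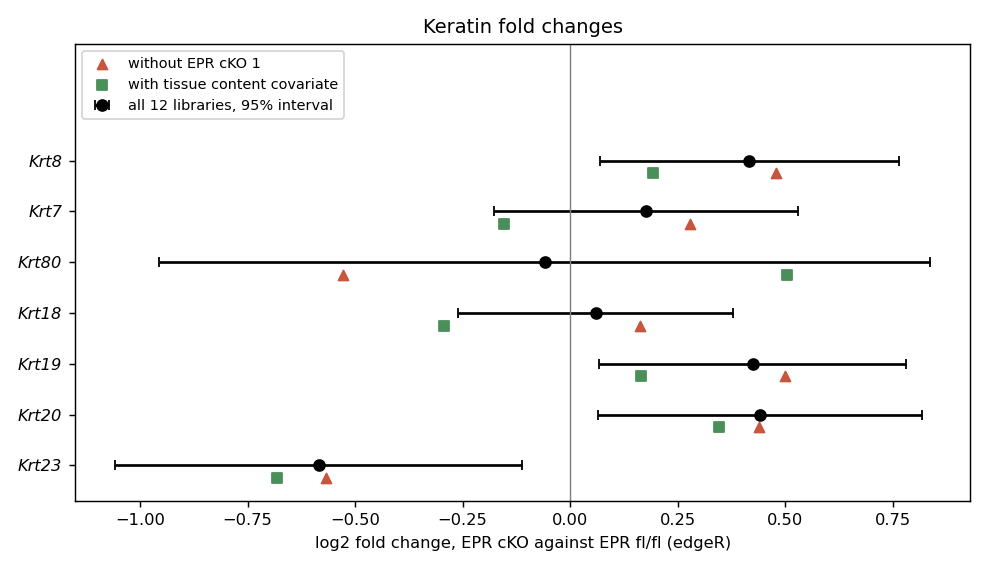
Log2 fold change of the 7 tested keratins, EPR cKO against EPR fl/fl, from edgeR. Black points with bars give the value and 95% interval over 12 libraries, red triangles the value without EPR cKO 1 and green squares the value with tissue content as a covariate, which lies closer to 0 than the black point for Krt7, Krt8, Krt19 and Krt20 and farther from 0 for Krt18, Krt23 and Krt80.

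Marker levels of epithelium and muscle also differed between the libraries. All 13 epithelial marker genes, which include Epcam, Cdh1 and Vil1 and no keratin, had higher fitted values in EPR cKO, with 0 of 13 called and a median log2 fold change of 0.24. Their summed level was 6926 to 8356 CPM in EPR fl/fl, 7387 CPM in EPR cKO 1 and 8658 to 10269 CPM in the other EPR cKO libraries. Epcam, which encodes an adhesion protein of all colon epithelial cells, had a log2 fold change of 0.20 (SE 0.11, edgeR adjusted p = 0.339). All 9 smooth muscle genes had lower fitted values (0 called, median -0.53). With the difference between mean log2 epithelial and smooth muscle level as a covariate, edgeR gave 0.19 for Krt8 (adjusted p = 0.651), 0.16 for Krt19 (adjusted p = 0.707), 0.35 for Krt20 (adjusted p = 0.463) and -0.68 for Krt23 (adjusted p = 0.239). The fitted values of Krt7, Krt18 and Krt80 had the opposite sign in this fit, at -0.15, -0.29 and 0.50. The covariate was 0.105 to 0.874 in EPR fl/fl, -0.777 in EPR cKO 1 and 1.22 to 2.69 in the other EPR cKO libraries. Apart from EPR cKO 1, it separated the groups, so this fit leans on that library and cannot cleanly part genotype from tissue content.

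Set against Epcam within each library, in RPKM, the log2 ratio of Krt8 was 1.46 ± 0.21 (SD, n = 6) in EPR fl/fl, against 1.68 ± 0.15 in EPR cKO. The ratio of Krt19 was 0.60 ± 0.24 and 0.83 ± 0.16, and that of Krt20 was -0.40 ± 0.31 and -0.12 ± 0.20. Krt18 went the other way, with -1.76 ± 0.19 and -1.93 ± 0.28. All 4 sets of ratios overlapped between the groups, and they were not tested.

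**Figure D4:**
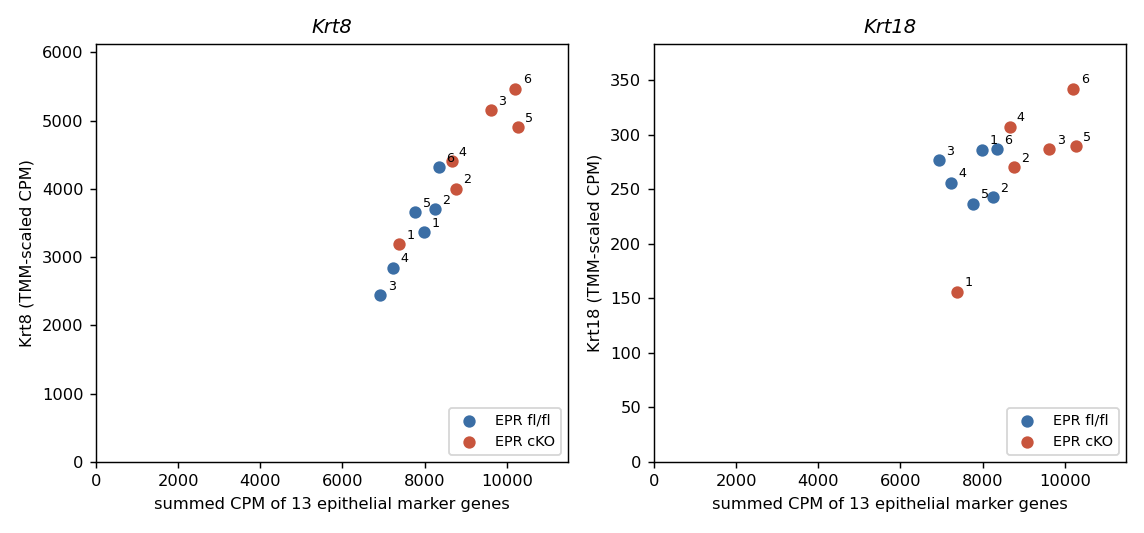
TMM-scaled CPM of Krt8 (left) and Krt18 (right) against the summed CPM of 13 epithelial marker genes, with 1 point per library, numbered by replicate, in blue for EPR fl/fl and red for EPR cKO. Krt8 tended to be higher where the marker sum was higher, from 2445 CPM in EPR fl/fl 3 to 5466 CPM in EPR cKO 6. The order was not strict, and EPR cKO 5, with the highest marker sum, had Krt8 at 4904 CPM. Krt18 lies between 237 and 342 CPM in 11 libraries and at 156 CPM in EPR cKO 1.

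Other cell types of the tissue were checked by marker lists. Of the goblet cell genes, 8 of 8 had lower values in EPR cKO and 5 of 8 were called, where 1.57% of all genes were called lower, with a summed level of 13357 to 28381 CPM in EPR fl/fl, against 6136 to 8543 CPM in EPR cKO. Of 10 surface colonocyte genes, 7 had higher and 3 lower fitted values and 0 were called, with sums of 6147 to 9248 CPM and 6377 to 8934 CPM. Mesothelium, which also expresses simple keratins, had a sum over 6 genes of 11.3 to 144 CPM in EPR fl/fl, against 15.9 to 93.3 CPM in EPR cKO (at most 61.7 CPM without EPR cKO 1). The 8 genes of squamous epithelium summed to 0.357 to 2.57 CPM and 0.535 to 2.14 CPM, so that keratinocyte transcripts were near 0. The lists for crypt base, tuft, fibroblast, adipocyte and immune cells had 0 genes called, and the adipocyte sum was 322 to 936 CPM in EPR fl/fl, against 690 CPM in EPR cKO 1 and 46.6 to 240 CPM in the other EPR cKO libraries, which lay below every EPR fl/fl library. Of the 6 adipocyte genes, 4 were lower at an unadjusted p under 0.05. The covariate fit holds no goblet cell or adipocyte genes, and the part of these cells in the keratin values was not tested.

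Across the 12 libraries, after the group means were subtracted from log2 CPM, Krt8 and Krt19 varied together most closely of the keratin pairs, with a Pearson r of 0.98 (0.97 without EPR cKO 1). Krt7 and Krt18 had an r of 0.92 (0.77 without it). Krt8 and Krt20 had an r of 0.77 (0.87 without it), and Krt8 and Krt18 one of 0.58 (0.26 without it). Krt20 and Krt23 had an r of -0.61. The lowest r over the 12 libraries was that of Krt18 and Krt80, at -0.77 (-0.49 without EPR cKO 1). Of all tested genes that are not members, those with the highest r were Fdx1 (0.97) and Ndufs8 (0.97) for Krt8, Prelid1 (0.97) and Atp5b (0.96) for Krt19, Dstn (0.96) and Rab11a (0.96) for Krt20, and Mthfd2 (0.97) and Aars (0.95) for Krt7. For Krt18 the gene given here is Eif3c (0.96). For Krt80 they were Slc2a12 and Pdlim4 (both 0.97), and for Krt23 Lyrm9 and Zfp955b (both 0.90). Without EPR cKO 1 the r of these genes lay between 0.89 and 0.97. The values share libraries, depth and tissue content, and no p-value is given.

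Of the other 47 keratin genes in the table, 13 had no count in any library, 40 did not pass the filter and 7 were tested, with 0 of 7 called. The highest per length was Krt8-ps, a processed copy of Krt8, at 5.25 ± 2.01 CPM (SD, n = 6) in EPR fl/fl, against 7.99 ± 1.52 CPM in EPR cKO. Its log2 fold change was 0.61 (SE 0.23, edgeR adjusted p = 0.186), and without EPR fl/fl 6 it was 0.83 and passed the threshold (adjusted p = 0.0371). Of the 50-base stretches of Krt8 transcripts, 29.7% also occur in another gene, mainly in Krt8-ps. Reads from these stretches could have been divided between both genes or left uncounted. Krt8-ps had 1.52 ± 0.299 counts for every 1000 of Krt8 in EPR fl/fl, against 1.78 ± 0.268 in EPR cKO. Krt87 (0.23, edgeR adjusted p = 0.611) and Krt17 (-0.21, edgeR adjusted p = 0.871) followed in level. Antisense genes overlap 5.16% of the exon bases of Krt8 and 5.86% of those of Krt80, and the strand setting of the counting is not given in the sources used here.

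The list of keratin partners holds 23 genes whose products anchor, bridge or fold keratin filaments, and all 23 were tested. A total of 7 were called higher in EPR cKO, against 0.884% of all genes called in this direction. The list was chosen with earlier results of these data known, so its counts are a description and not independent support. At an unadjusted p under 0.05, 15 of 23 were higher and 0 lower. The median log2 fold change of the list was 0.30, with 18 of 23 fitted values higher. Epithelial markers were also higher in 13 of 13 genes, with a median of 0.24 and 0 called. Of these markers, 5 of 13 were higher at an unadjusted p under 0.05 in edgeR, against 11.1% of all genes. In 6 of 23 genes every EPR cKO library lay above every EPR fl/fl library, as in 1% of all genes, and 1 of the 6, Dsg2, was not called (edgeR adjusted p = 0.0652). No test compared the partner genes with the keratins.

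Desmosome genes carried 4 of the 7 calls, and all 9 of them had higher fitted values, with a median log2 fold change of 0.41. Jup encodes plakoglobin of the desmosomal plaque and gave 191 to 227 CPM in EPR fl/fl, against 232 to 305 CPM in EPR cKO, a log2 fold change of 0.41 (edgeR adjusted p = 0.0219). Pkp3, a plakophilin of the same plaque, gave 55.6 to 82.8 CPM and 84.8 to 117 CPM (0.51, edgeR adjusted p = 0.0244). Perp, a desmosomal membrane protein, gave 166 to 236 CPM and 246 to 321 CPM (0.46, edgeR adjusted p = 0.0280). The groups did not overlap for these 3 genes. Pkp2 was called with a smaller difference (0.30, edgeR adjusted p = 0.0392) and overlapping groups. Dsp, which encodes the desmoplakin that ties keratins to the plaque, had a log2 fold change of 0.30 and was not called (edgeR adjusted p = 0.0821).

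Of the 8 cytolinker and hemidesmosome genes, 2 were called. Itgb4, the integrin chain of the hemidesmosome, gave 128 to 151 CPM in EPR fl/fl, against 158 to 219 CPM in EPR cKO, with no overlap and a log2 fold change of 0.48 (SE 0.08, edgeR adjusted p = 0.00818). Evpl, which encodes the cytolinker envoplakin, gave 37.9 to 66.5 CPM and 61.3 to 92.9 CPM (0.67, edgeR adjusted p = 0.0291). Plec, the plectin gene, was not called (0.36, edgeR adjusted p = 0.164), nor was Itga6, whose product pairs with that of Itgb4 (0.16, edgeR adjusted p = 0.506). Of the 6 other binding or chaperone genes, Fam83h was called. FAM83H is known to organise keratin filaments, and its gene gave 90.9 to 108 CPM in EPR fl/fl, against 114 to 148 CPM in EPR cKO, with no overlap (0.43, SE 0.08, edgeR adjusted p = 0.00948). Itgb4 and Fam83h were called whichever of the 12 libraries was left out. In the same 12 fits Jup and Pkp3 were called in 6 each, Evpl in 5, Perp in 3 and Pkp2 in 2. Without EPR cKO 1, 13 of 23 partner genes were called (11 higher and 2 lower), where 21.8% of all genes were called. The number was 7 without EPR fl/fl 2, 6 without EPR fl/fl 6 and 5 without EPR cKO 4. It was 4 without EPR fl/fl 5 or EPR cKO 5, and 3 without EPR fl/fl 1, EPR fl/fl 3 or EPR cKO 6. It was 2 without EPR fl/fl 4, EPR cKO 2 or EPR cKO 3. With tissue content as a covariate 4 were called, Itgb4 (0.51), Fam83h (0.38), Evpl (0.79) and Plec (0.56). None of the 4 called desmosome genes was called in that edgeR fit. The adjusted p was 0.0837 for Jup, 0.105 for Pkp3, 0.117 for Perp and 0.170 for Pkp2. With total counts in place of TMM, Itgb4 and Evpl were called and Fam83h was not (edgeR adjusted p = 0.0621). Over the 9 alternative fits with all libraries, Itgb4 and Evpl were called in 9 and Fam83h in 8. Pkp3 was called in 7 of them, Jup in 6, and Perp and Pkp2 in 5 each.

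**Figure D5:**
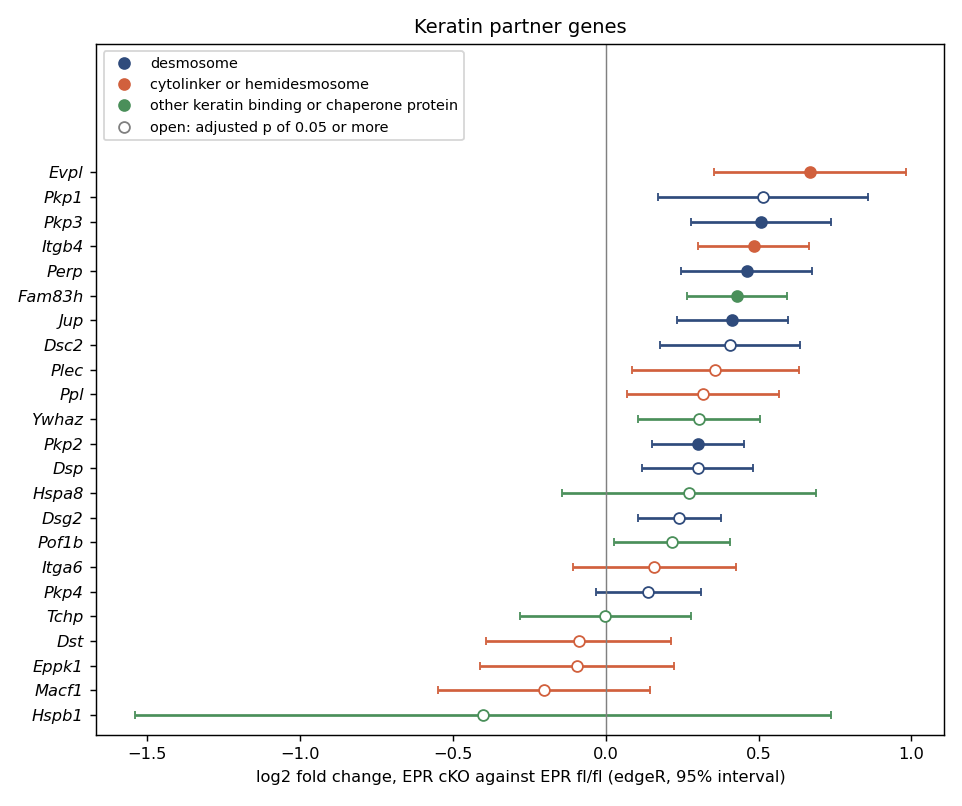
Log2 fold change of 23 keratin partner genes, EPR cKO against EPR fl/fl, with 95% intervals from edgeR over 12 libraries, coloured by role, with filled points for adjusted p under 0.05. The 7 filled points lie between 0.30 (Pkp2) and 0.67 (Evpl), all to the right of 0.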

How the data were processed

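Total RNA from proximal colon was sequenced after ribosomal RNA depletion with a strand-marking kit. The authors trimmed reads with Trimmomatic, aligned them to mm10 with STAR 2.5.3a and counted them per Ensembl gene with featureCounts. The deposited values were raw counts, not normalized, in 12 columns matched to samples by name. The strand setting of the counting and the handling of multiply aligned reads are not given in the sources used here.

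Genes with at least 1 CPM in at least 4 libraries were kept (15952 of 36694 with any count). EPR cKO was compared with EPR fl/fl by the edgeR 4.0.16 quasi-likelihood F test in R 4.3.3, with TMM scaling, no covariate and Benjamini-Hochberg adjustment over all tested genes. SEs are the absolute log2 fold change divided by the square root of F, and intervals are 95%. RPKM used summed exon length. Total counts of 13093904 to 33211041 per library set the counting precision. The edgeR and limma-voom fits were also run on simulated counts, which held no differences in tissue content between libraries. Alternatives used DESeq2 1.42.0, limma 3.58.1, other filters and scalings, a replicate block, a tissue content covariate and fits without each library. The keratins, partner genes and marker lists were chosen with earlier results of these data known. All 8 keratins were described, called partner genes were named by adjusted p, and the 3 highest other keratins and the 2 genes most like each keratin were named by rule, except 1 gene for Krt18 that is not reported here. Other partner genes (Dsp, Dsg2, Plec and Itga6) were named after their values were seen.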

Additional observations from a re-analysis of the deposited data

Results flagged for a closer look

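Among 54 sets of 6 libraries, 3 held a library far from the others of its group, and chance flags about 5% of sets, or 2.7 here. Evpl was at 66.5 CPM in EPR fl/fl 1, with the nearest EPR fl/fl library at 44.2 CPM and the lowest at 37.9 CPM. EPR (Smim31) was at 0.423 CPM in EPR cKO 2, with the nearest EPR cKO library at 0.134 CPM and the lowest at 0 CPM. Krt8-ps had 2.08 counts per 1000 Krt8 counts in EPR fl/fl 6, with the nearest EPR fl/fl library at 1.52. Their causes were not tested.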

How the results depend on the processing

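The count of keratins called was 0 of 7 except for limma-voom with quality weights, which called 2, and ranged from 0 to 2 when each library was left out, with 2 without EPR cKO 1. Other keratins called were 0, except 2 with quality weights (Krt8-ps higher and Krt222 lower), and 0 to 1 when each library was left out. Partner genes called were 7, and 2 with total counts in place of TMM, 4 with no filter on low counts, 11 with DESeq2, 16 with quality weights, 4 with the tissue content covariate, and 2 to 13 when each library was left out. All genes called were 392 (141 higher and 251 lower), 286 with total counts (39 higher and 247 lower), 297 with no filter (54 higher and 243 lower), 333 with the covariate (84 higher and 249 lower), 913 with DESeq2 (440 higher and 473 lower), 3263 with quality weights, and 176 to 3451 when each library was left out. The cause of these differences was not tested. The signs reversed with the covariate for Krt7 (-0.15), Krt18 (-0.29) and Krt80 (0.50). When each library was left out, Krt18 ranged from -0.0088 (without EPR cKO 6) to 0.16 and Krt80 from -0.53 to 0.12. Krt8 ranged from 0.34 to 0.50, and its adjusted p from 0.0376 to 0.404.

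Libraries of both groups carry replicate numbers. The correlations of same-numbered libraries after subtraction of the group means were 0.10, -0.06, -0.10, 0.34, -0.24 and 0.25. No pairing by number was evident from them, but these values cannot exclude it. With a replicate block, edgeR called 245 genes (67 higher and 178 lower), 0 of 7 keratins and 5 of 23 partner genes. Krt80 and Krt36 had at most 62 and 11 counts per library, the fewest of the members, which limits the precision of their values.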
